A study of Homo sapiens with 9 samples.

Results

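The genes described here are the 113 expressed protein-coding genes of the long arm of chromosome 18 (18q) in 9 RNA-seq libraries of the SW480 colon carcinoma line and of 2 lines derived from it. They were chosen by position and by their own counts. A gene had to lie on the outer side of the centromere in GRCh37, from ROCK1 onwards, and to reach at least 1 CPM (counts per 1000000 counts on genes) in 3 or more of the 9 libraries. Of the 199 protein-coding genes in that stretch with a row in the count files, 18 were left out by symbol (GATA6, NFATC1, TNFRSF11A and genes starting CDH, DSC, DSG, SMAD or LAMA) and 68 stayed under the minimum, 27 of them with 0 counts in every library. The count files list 63677 genes in all, and 12462 protein-coding genes were expressed by the same minimum. At the edge of the rule, CD226 had 1.06 CPM in its third-highest library and was kept, and RAB27B had 0.992 CPM and was not. CCBE1 and CD226 reached 1 CPM only in SW480 libraries, so their higher level in SW480 was built into the choice. Without the SW480 libraries, 108 of the 113 genes still met the rule, and SETBP1, ALPK2, CCBE1, DSEL and CD226 did not.

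SW480 is an established line from a human colorectal adenocarcinoma, and the parental cells used here carried no introduced construct, not even an empty vector. SW480-B cells carry BASP1 cDNA in the plasmid pcDNA3 under the CMV promoter and were selected with G418 and grown from single cells, so the line stands for 1 clone. SW480-gRNA-B-all cells carry the activator components MS2-P65-HSF1 and dCas9-VP64-GFP together with pooled guide RNAs against the promoter of the resident BASP1 gene, and the cells that received the guides had also been cloned. BASP1, a membrane-bound and nuclear protein that can act as a transcriptional corepressor, is the gene the study set out to raise. Each line was measured in 3 libraries, and the sources do not say that these came from separate cultures, so p-values measure only the spread between these samples, which may be technical.

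The long arm of chromosome 18 is frequently lost in colorectal carcinoma, and it is best known there for SMAD4 and DCC. The genes of an arm share no pathway. What they share is their place on 1 DNA molecule, so that a gain or loss of the arm alters the dosage of all of them together, and the RNA levels of many genes follow dosage. DNA copy number was not analysed here, and a change in the number of copies and a change in RNA made per copy cannot be told apart in bulk RNA.

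Library totals on genes ran from 25238831 to 29355669 counts, so that 3 counts, the limit taken for a gene with 0 counts, stood for 0.102 to 0.119 CPM. Limits and intervals from counts cover counting error only. The targeted gene matched the labels. BASP1 stood at 11.3, 8.09 and 0.688 CPM in SW480 replicates 1 to 3, at 266, 269.9 and 255 CPM in SW480-B, and at 166, 308 and 305 CPM in SW480-gRNA-B-all. SW480 replicate 3 had the lowest BASP1 level of its line. Replicates 2 and 3 of SW480-gRNA-B-all were far closer to each other than any other pair of replicates. A chi-square test of their counts gave 3.13 per degree of freedom, against 80.9 to 296 for the other pairs within a line. Of 10 markers of colon epithelium, 7 reached 1 CPM in some library. The keratins KRT8, KRT18 and KRT19 stood at 518 CPM or more in all 9 libraries, while KRT20, CDX1 and LGALS4 stayed under 1 CPM. Other markers of the list moved with the lines. VIL1 (villin, of the brush border) was at 327, 310.5 and 98.3 CPM in SW480, at 29.5 to 36.1 CPM in SW480-B and at 21.4, 6.91 and 6.45 CPM in SW480-gRNA-B-all. EPCAM was at 715, 582 and 458 CPM in SW480 and at 279 to 433 CPM elsewhere, CDX2 at 28.9 to 41.7 CPM in SW480, 58.3 to 67.8 CPM in SW480-B and 2.41 to 5.51 CPM in SW480-gRNA-B-all, and CDH1 at 20.4, 37.7 and 72.6 CPM in SW480, a range that held its values in the other 6 libraries. The summed markers of fibroblasts, leukocytes and endothelium ranged from 0.819 to 11.0 CPM, and COL3A1 was at 0 in every library. The part of these markers in the results below was not tested.

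The level of the arm differed most within the parental line. For each gene, the deviation of a library is its log2(CPM + 1), with CPM scaled by TMM (a correction for composition), minus the mean of that value over the 9 libraries, and the arm level is the median deviation over the 113 genes. It was 0.62, 0.44 and -0.016 in SW480 replicates 1, 2 and 3. In SW480-B it was -0.22, -0.07 and -0.15, and the SW480-gRNA-B-all libraries had -0.22, -0.20 and -0.18. Thus 2 of the 3 SW480 libraries stood well above all others, and the third lay close to the 2 derived lines. The mean arm level was 0.35 ± 0.33 (SD, n = 3) in SW480, -0.15 ± 0.073 in SW480-B (n = 3) and -0.20 ± 0.019 in SW480-gRNA-B-all (n = 3). Because deviations are taken from the mean of all libraries, high values in SW480 replicates 1 and 2 place the other libraries below 0 by construction. These levels are a description of genes picked on their CPM, and they carry no test.

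**Figure D1:**
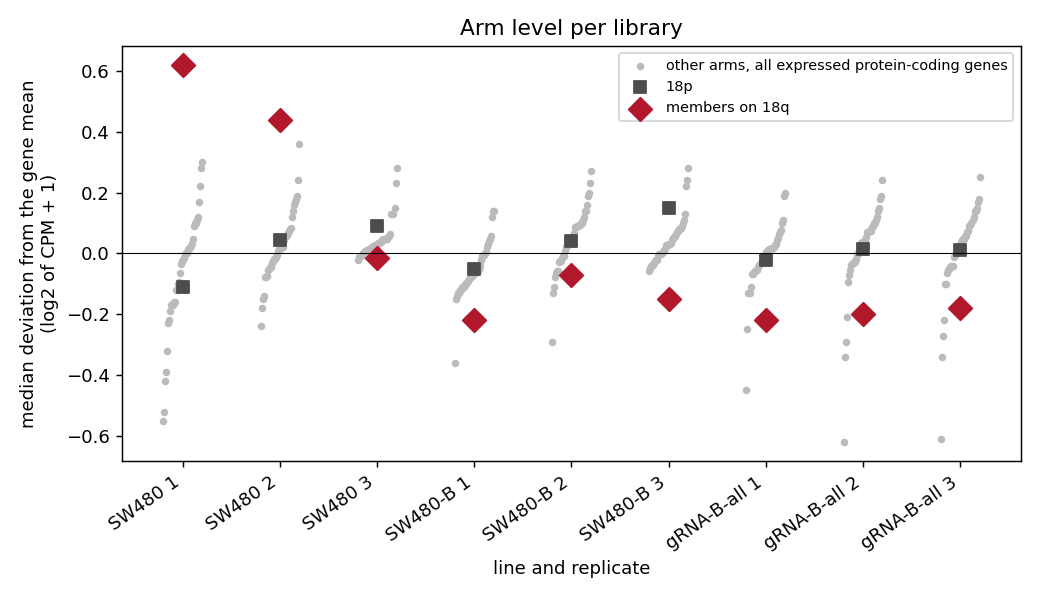
Arm level in each library: the vertical axis is the median deviation of a group of genes from their own means over 9 libraries (log2 of CPM + 1), and the horizontal axis lists line and replicate. Red diamonds are the 113 genes of 18q, grey squares 18p and grey points the other arms with at least 50 expressed genes. The diamonds stand at 0.62 and 0.44 in SW480 replicates 1 and 2, above every other arm, and between -0.22 and -0.016 elsewhere.

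Most members took part. In SW480 replicate 1, 95 of the 113 genes were above their own mean (84.1%, against 45.6% of all expressed protein-coding genes), and in replicate 2 it was 94 (83.2% against 50.6%). In SW480 replicate 3, 55 were above (48.7% against 55.4%). In SW480-gRNA-B-all only 26 to 29 of the genes were above their mean (23.0% to 25.7%, against 50.4% to 53.6%). The highest of the 9 values was in SW480 replicate 1 for 60 of the 113 genes (53.1%, against 21.1% of all expressed protein-coding genes) and in replicate 2 for 21 (18.6%, against 10.8%). Within the parental line, the median gene was 0.58 higher (log2) in replicate 1 than in replicate 3 and 0.45 higher in replicate 2 than in replicate 3, where all expressed protein-coding genes had medians of -0.10 and 0.0017. Of the 113 genes, 26 were more than 2-fold higher in replicate 1 than in replicate 3 (23.0%, against 8.48% of all expressed protein-coding genes) and 4 more than 2-fold lower (3.54%, against 14.0%). Between replicates 2 and 3 these numbers were 14 (12.4%, against 4.58%) and 1 (0.885%, against 3.42%). The spread among the SW480 libraries is therefore of the same size as the differences between the lines given below. Together the 113 genes took 0.549%, 0.475% and 0.346% of all counts on genes in SW480, 0.348%, 0.367% and 0.328% in SW480-B, and 0.330%, 0.324% and 0.316% in SW480-gRNA-B-all.

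No other arm was as high in those 2 libraries. Counting every expressed protein-coding gene of each arm, the left-out genes included, 18q had the highest median of 40 arms in SW480 replicate 1 (0.63) and in replicate 2 (0.45). The next highest arm was 19q at 0.30 in replicate 1 and Xp at 0.36 in replicate 2. SW480 replicate 1 also had the lowest medians for 17p (-0.55) and 3q (-0.52), so other arms moved in the same library in the opposite direction. In SW480 replicate 3 18q ranked 35th from the top, at -0.0047. In SW480-B it ranked 39th (-0.20), 33rd (-0.046) and 40th (-0.15) in replicates 1, 2 and 3, and in SW480-gRNA-B-all it ranked between 36th and 38th, above Xp and 21q in each library. The short arm of the same chromosome, with 46 expressed genes, stayed between -0.11 and 0.15 in all 9 libraries.

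Genes of 18q that the rule kept out gave the same order of libraries at the top. The 9 expressed genes left out by symbol had medians of 0.78, 0.47 and -0.0023 in SW480 replicates 1, 2 and 3. The 8 expressed 18q genes that are not protein-coding had medians of 0.52, 0.24 and 0.16. Both sets were highest in SW480 replicates 1 and 2. Pseudogenes among them share sequence with genes elsewhere, and their counts are uncertain.

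The height of SW480 replicate 1 changed along the arm, and that of replicate 2 changed less. The 25 genes up to 30 Mb, from ROCK1 to GAREM1, had medians of 0.11 and 0.18 in those 2 libraries. Between 30 and 40 Mb (16 genes, from DTNA to PIK3C3) the medians were 0.75 and 0.51, and between 40 and 50 Mb (23 genes) they were 0.68 and 0.37. They stayed at this height to the end of the arm. For 50 to 60 Mb (20 genes) they were 0.77 and 0.58, for 60 to 70 Mb (12 genes) 0.65 and 0.63, and for 70 to 80 Mb (17 genes, ending with PARD6G) 0.68 and 0.50. Of the genes past 30 Mb, 81 of 88 were above their mean in SW480 replicate 1, against 14 of the 25 before it. In replicate 2 it was 76 of 88 and 18 of 25. The difference between replicates 1 and 3 of SW480 had a median of 0.041 before 30 Mb and 0.61 past it, and that between replicates 2 and 3 had 0.31 and 0.45. SW480 replicate 3 stayed between -0.072 and 0.21 in every bin.

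**Figure D2:**
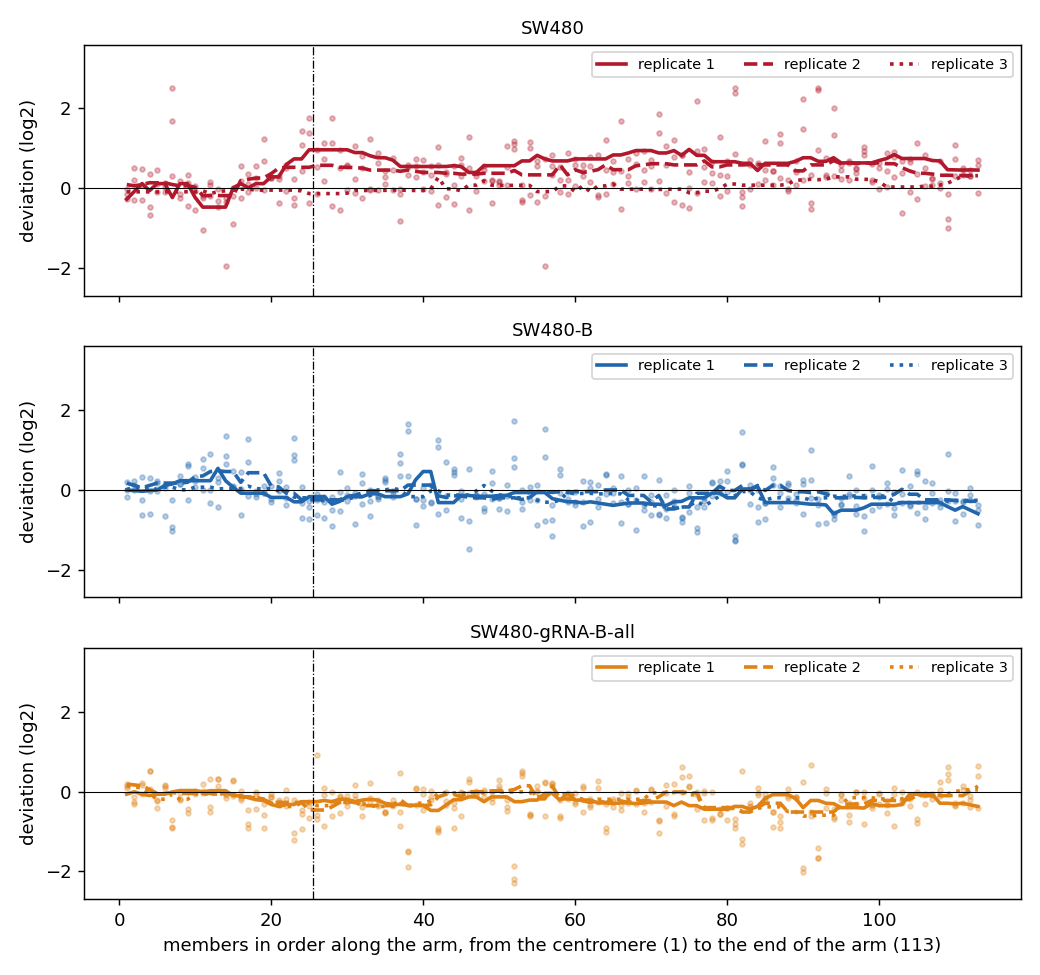
Deviation of each member (log2 of CPM + 1, vertical axis, points drawn at 2.5 or -2.5 where they lie beyond) in order along the arm from the centromere outwards (horizontal axis), 1 panel per line. Lines are running medians over 9 genes for replicates 1 (solid), 2 (dashed) and 3 (dotted), and the vertical line marks 30 Mb. In SW480 replicate 1 leaves 0 near that line and remains above 0 past it, replicate 2 shows a smaller change, and replicate 3 stays near 0.

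Single genes near the change of level differed. RNF138, an E3 ubiquitin ligase of double-strand break repair, lies at chr18:29671837-29711524 and was at 68.4, 53.8 and 33.6 CPM in SW480, at 15.0, 19.5 and 26.2 CPM in SW480-B, and at 12.6, 17.8 and 16.7 CPM in SW480-gRNA-B-all. Its neighbour RNF125, another E3 ligase, lies just before it and was at 4.95, 8.40 and 5.69 CPM in SW480 and at 13.6, 18.9 and 12.6 CPM in SW480-B. The neighbours thus had opposite orders between these 2 lines. Neither difference passed the threshold used below (adjusted p = 0.11 for RNF138 and 0.12 for RNF125, edgeR). ROCK1, the first gene of the arm and a kinase of the actin cytoskeleton, was at 123, 146 and 134 CPM in SW480 and between 131 and 170.5 CPM in the other 6 libraries. PARD6G, the last and a cell polarity gene, was at 1.51, 3.05 and 3.44 CPM in SW480, at 0.500, 0.932 and 1.11 CPM in SW480-B, and at 1.05, 3.25 and 2.58 CPM in SW480-gRNA-B-all.

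Levels of the members covered a wide range. The median gene had a mean of 18.8 CPM over the 9 libraries, against 34.5 CPM for all expressed protein-coding genes, and 9 members had means of at least 100 CPM. Per kilobase of annotated exon, NARS1, which charges the tRNA for asparagine, was highest at 35.4 CPM per kb and CD226, a receptor of lymphocytes, lowest at 0.0897. NARS1 was at 306, 228 and 104 CPM in SW480, at 108, 132 and 99.7 CPM in SW480-B and at 151, 88.8 and 85.4 CPM in SW480-gRNA-B-all. Its values in SW480 replicates 1 and 2 were the highest, and replicate 3 overlapped with the derived lines. ATP5F1A, the alpha subunit of mitochondrial ATP synthase, had the most counts, with 491, 436 and 358 CPM in SW480, 179.5, 248 and 287 CPM in SW480-B, and 189.8, 292 and 287 CPM in SW480-gRNA-B-all. Here the 3 SW480 libraries stood above the other 6. Its fold change of -0.79 ± 0.23 (log2, SE) between SW480-gRNA-B-all and SW480 nevertheless missed the threshold used below (adjusted p = 0.082, edgeR).

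By role, 96 of the 113 genes fall in 8 lists, and the height of SW480 replicates 1 and 2 was spread over them. The list medians in replicate 1 were 0.79 for RNA processing and translation (12 genes), 0.73 for transcription factors and chromatin (19), 0.67 for membrane traffic, ER, Golgi and lysosome (21), 0.49 for cell division, microtubules and genome maintenance (13), 0.47 for ubiquitin and SUMO genes (6) and 0.38 for mitochondria and metabolism (13). The list of signalling, cytoskeleton and cell death genes (10) had 0.20. In replicate 2 the medians of all 8 lists lay between 0.22 and 0.57, and in replicate 3 between -0.16 and 0.18. Only 2 of the 10 clade B serpins, protease inhibitors whose genes are clustered on the distal arm, were expressed. SERPINB5 (maspin) was at 48.3, 27.8 and 11.0 CPM in SW480, at 5.84, 11.4 and 10.5 CPM in SW480-B, and at 11.3, 1.76 and 1.56 CPM in SW480-gRNA-B-all. SERPINB8 was at 17.3, 10.3 and 9.20 CPM, at 16.4, 28.0 and 11.7 CPM, and at 22.4, 9.32 and 8.58 CPM in the same lines.

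**Figure D3:**
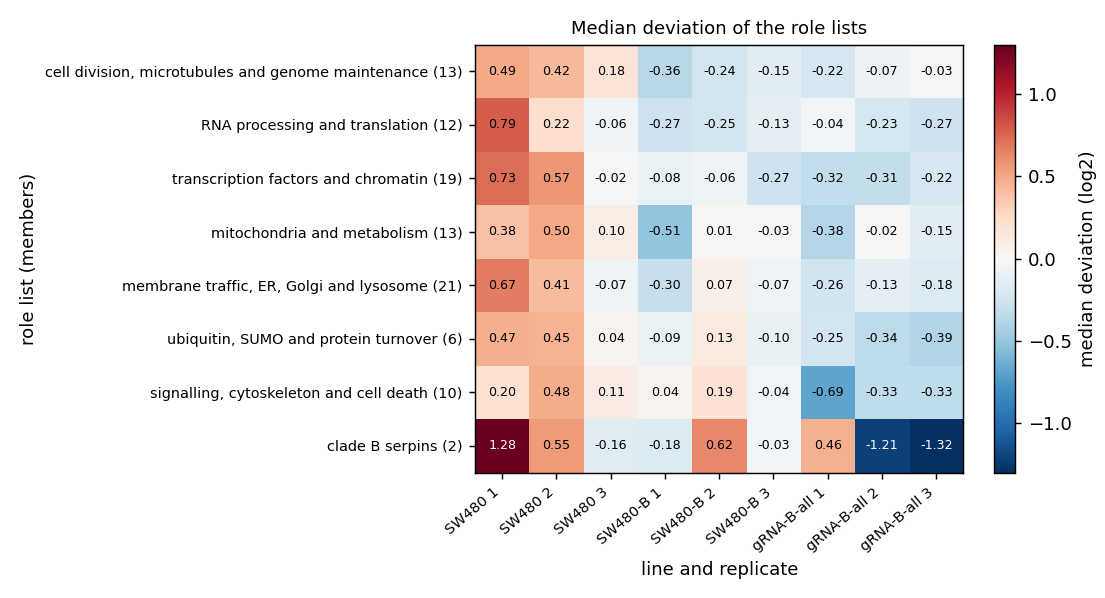
Median deviation (log2 of CPM + 1, colour and printed value) of the members of each role list (rows, with the number of members) in each library (columns). SW480 replicates 1 and 2 are above 0 in all 8 lists, with values up to 1.28 for the 2 serpins, and SW480 replicate 3 lies between -0.16 and 0.18.

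SW480-gRNA-B-all was compared with SW480 to see which of these genes differed where the resident BASP1 gene was switched on. Most members were lower in SW480-gRNA-B-all. Their median log2 fold change was -0.67, with quartiles at -1.02 and -0.39, and 99 of the 113 were below 0 (87.6%). All 16100 genes tested had a median of -0.054, with 53.3% below 0. In the quasi-likelihood test of edgeR, with p-values adjusted over all genes tested (Benjamini-Hochberg) and a threshold of 0.05, 17 of 113 members were lower (15.0%, against 5.52% of all genes) and 0 were higher (against 2.29%). At an unadjusted p under 0.05, 3 members were higher (2.65%, against 11.5% of all genes) and 63 lower (55.8%, against 16.9%). DESeq2 called 2 higher (1.77%, against 6.08%) and 38 lower (33.6%, against 9.56%). SETBP1, CCBE1, DSEL and CD226, 4 of the 17, did not meet the CPM rule without the SW480 libraries, so their fall is no independent result. SETBP1 needed SW480-B as well, with 2 libraries of each of these lines at 1 CPM or more. Of the 108 genes that met the rule without those libraries, 13 were lower (12.0%), with a median of -0.64.

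These counts rested on single libraries. Calls over all genes moved with them. Without SW480 replicate 3, 56 members were lower (49.6%, against 12.8% of all genes in that fit) and ABHD3, HSBP1L1 and TTC39C were higher (2.65%, against 8.11%), and the 56 held all 17 genes. Without SW480 replicate 2 none was lower (against 0.0424%). Without replicate 1 the number was 15 (13.3%, against 5.10%), and CTIF was higher (0.885%, against 2.93%). Without SW480-gRNA-B-all replicate 1, 2 or 3 it was 3, 2 and 2, against 0.860%, 0.375% and 0.369% of all genes. When the 2 like libraries of SW480-gRNA-B-all, replicates 2 and 3, were added up and entered once, only FHOD3 and ZBTB7C remained (1.77%, against 0.458%). The median log2 fold change stayed between -0.81 and -0.53 whichever library was left out.

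**Figure D4:**
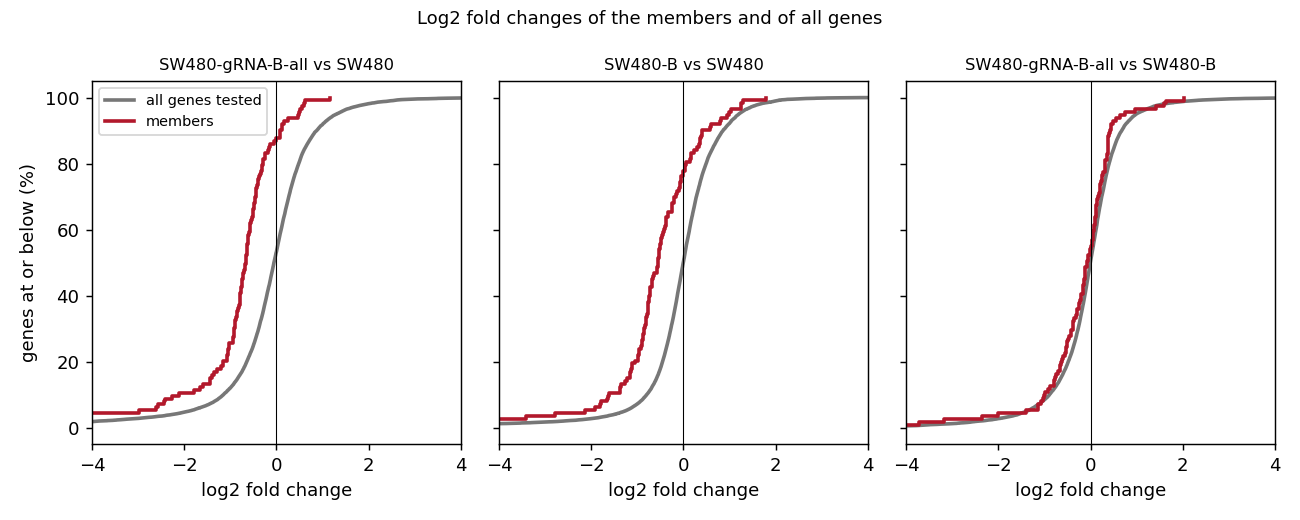
Share of genes at or below each log2 fold change (vertical axis, percent) for the members (red) and all genes tested (grey), 1 panel per comparison, drawn from -4 to 4. In both comparisons with SW480 the red curve lies to the left, with medians of -0.67 and -0.55, and between the 2 derived lines it lies near the grey one, with a median of -0.068.

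The 17 genes that fell belong to several roles. Of 19 transcription factor and chromatin genes, ZBTB7C, SETBP1 and ONECUT2 fell. Of 13 genes of mitochondria and metabolism, ME2 (mitochondrial malic enzyme), CYB5A (cytochrome b5), the dipeptidase CNDP2 and the zinc transporter SLC39A6 fell. Of 10 genes of signalling, cytoskeleton and cell death, BCL2 (an inhibitor of apoptosis), the formin FHOD3 and the Akt phosphatase PHLPP1 fell. The ubiquitin list gave RNF138 and SOCS6 (of 6), the cell division list CABLES1 (of 13), and the RNA list TXNL4A, a component of the spliceosome (of 12). None of the 21 genes of membrane traffic passed, with a median of -0.61. DSEL, CCBE1 and CD226 are in no role list. The medians of the 7 lists with more than 2 members lay between -0.79 and -0.61, close to that of the whole arm.

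The largest fall was that of DSEL, an epimerase-like gene of dermatan sulfate synthesis at chr18:65173824-65183957. It was at 22.0, 17.1 and 5.36 CPM in SW480, at 1.54, 1.83 and 0.827 CPM in SW480-B, and at 0.237, 0.0339 and 0.0339 CPM in SW480-gRNA-B-all. The 3 lines did not overlap, and SW480 replicate 3 was again the lowest of its line. The log2 fold change was -7.18 ± 0.90 (adjusted p = 0.012, edgeR), from 9 counts in all in SW480-gRNA-B-all, and antisense genes share 35.7% of its exon bases. The strand setting of the counting is not stated, so reads of DSEL and of these genes cannot be told apart with certainty. DSEL reached 1 CPM in the 3 parental libraries, in 2 of SW480-B and in 0 of SW480-gRNA-B-all, so the parental libraries brought it into the list.

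SETBP1, the gene of a SET-binding nuclear protein, was at 3.08, 2.01 and 0.507 CPM in SW480, at 3.27, 3.80 and 0.324 CPM in SW480-B, and at 0.0338, 0 and 0.0678 CPM in SW480-gRNA-B-all. The third library was lowest in both SW480 and SW480-B. SETBP1 reached 1 CPM in 2 libraries of each of these lines and in 0 of SW480-gRNA-B-all, so both lines brought it into the list. SW480-gRNA-B-all had 3 counts in all against 166 in SW480, a ratio of 54.8 (95% exact counting interval 18.4 to 268) in the other direction (adjusted p = 0.025, edgeR).

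ZBTB7C, a zinc finger transcription factor, was steady in the parental line at 12.7, 13.5 and 11.5 CPM. It was at 10.0, 20.2 and 8.56 CPM in SW480-B and at 0.744, 0.407 and 0.305 CPM in SW480-gRNA-B-all, far below all 6 other libraries. Its log2 fold change against SW480 was -4.72 ± 0.41 (adjusted p = 0.0054, edgeR). FHOD3, which assembles actin filaments, was at 17.2, 20.1 and 20.7 CPM in SW480, at 44.5, 39.2 and 17.5 CPM in SW480-B, and at 4.13, 2.95 and 4.14 CPM in SW480-gRNA-B-all. SW480-gRNA-B-all was again lowest, at -2.41 ± 0.24 against SW480 (adjusted p = 0.0069, edgeR). In contrast to DSEL, the 3 SW480 libraries were close to each other for both genes, and replicate 3 had the highest value of FHOD3. Both passed in 5 of the 6 fits that left out 1 library, and without SW480 replicate 2 their adjusted p was 0.05 (edgeR) at the printed precision.

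CCBE1, a secreted protein of lymphatic vessel growth, and CD226 were near the limit of detection in both derived lines. CCBE1 was at 19.1, 13.4 and 4.02 CPM in SW480, between 0.143 and 0.252 CPM in SW480-B and between 0.475 and 0.712 CPM in SW480-gRNA-B-all. CD226 was at 5.83, 3.33 and 1.12 CPM in SW480 and between 0.0358 and 0.271 CPM in the other 6 libraries. Their log2 fold changes in SW480-gRNA-B-all were -4.42 ± 0.64 (adjusted p = 0.016) and -4.56 ± 0.83 (adjusted p = 0.026, edgeR). Both genes entered the list through SW480 alone.

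The promoters of 4 of these genes are printed because DSEL, SETBP1 and ZBTB7C had the 3 largest falls against SW480, and ZBTB7C, DSEL and FHOD3 the 3 largest against SW480-B. Each is the 250 bases before the RefSeq start of the gene, taken from a table of GRCh38.p14 and placed in GRCh37 by an exact match that occurred once on chromosome 18. Capitals mark CG dinucleotides, the sites where vertebrate DNA is methylated. ZBTB7C is at chr18:45901999-45902248 (minus strand), FHOD3 at chr18:33877426-33877675 (plus), DSEL at chr18:65183958-65184207 (minus, 29 bases within annotated exons) and SETBP1 at chr18:42260603-42260852 (plus).
ZBTB7C: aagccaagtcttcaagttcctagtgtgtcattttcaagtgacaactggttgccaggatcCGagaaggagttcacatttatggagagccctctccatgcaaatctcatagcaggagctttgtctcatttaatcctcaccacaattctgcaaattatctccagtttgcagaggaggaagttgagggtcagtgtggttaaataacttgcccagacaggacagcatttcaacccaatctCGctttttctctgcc
FHOD3: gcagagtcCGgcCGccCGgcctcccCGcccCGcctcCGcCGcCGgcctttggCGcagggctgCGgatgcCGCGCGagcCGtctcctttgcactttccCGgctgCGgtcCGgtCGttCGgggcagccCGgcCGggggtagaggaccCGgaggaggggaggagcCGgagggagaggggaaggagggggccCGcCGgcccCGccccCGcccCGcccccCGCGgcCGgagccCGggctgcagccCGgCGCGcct
DSEL: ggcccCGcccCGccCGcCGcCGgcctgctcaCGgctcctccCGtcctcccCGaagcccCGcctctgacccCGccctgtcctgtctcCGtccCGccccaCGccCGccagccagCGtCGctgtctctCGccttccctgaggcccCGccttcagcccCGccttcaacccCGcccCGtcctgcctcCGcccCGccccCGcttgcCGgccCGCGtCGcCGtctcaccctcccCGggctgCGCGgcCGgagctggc
SETBP1: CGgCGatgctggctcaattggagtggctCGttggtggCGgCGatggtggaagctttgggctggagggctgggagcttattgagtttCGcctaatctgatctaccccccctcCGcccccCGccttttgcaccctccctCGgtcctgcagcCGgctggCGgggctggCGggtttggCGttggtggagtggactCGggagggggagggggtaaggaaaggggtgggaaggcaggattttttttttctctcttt

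DSEL and FHOD3 were alike in base composition, with 33 CG dinucleotides at 80% G + C and 35 at 81.6%. SETBP1 held 14 at 62% and ZBTB7C 2 at 44.8%. Of the members, 96 were matched in the table, with medians of 22 CG dinucleotides and 66.4%, against 11 and 58% for all 35116 promoters. The full set was not filtered by expression or gene type. These contents and the motif shares below therefore compare unlike sets. The search covered 2 short motifs on both strands, the E-box CACGTG bound by MYC and MAX, and CTTTGA (reverse complement TCAAAG), the core bound by TCF/LEF factors. The E-box was found in 6 of the 96 members' promoters (6.25%, against 6.34% of all) and CTTTGA in 5 (5.21%, against 11.2%). None of the 4 printed promoters holds either motif in this window. For ZBTB7C and SETBP1 the annotation has a start farther upstream, so that these windows lie within the annotated gene, and the bases before that start were not searched.

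SW480-B was compared with SW480 to see which members differed where BASP1 came from the introduced construct. The median log2 fold change was -0.55, the quartiles were -0.90 and -0.055, and 88 of 113 were below 0 (77.9%). All 16106 genes tested had a median of -0.0039, with 50.3% below 0. Members past 30 Mb carried this shift, with a median of -0.71, whereas the 25 before it had 0.15. In SW480-gRNA-B-all the same 2 medians against SW480 were -0.74 and -0.39. Both comparisons use the same SW480 libraries. Few single genes passed. CCBE1, CD226 and DSEL were lower (3 of 113, 2.65%, against 1.25% of all genes) and 0 were higher (against 0.0931%) by edgeR. All 3 met the CPM rule only through the SW480 libraries, so nothing is read from this share. Of the 108 genes that met the rule without SW480, 0 were lower by edgeR, 35 at an unadjusted p under 0.05 (32.4%), and 17 by DESeq2 (15.7%), with a median of -0.54. Over all 113, an unadjusted p under 0.05 was reached by 6 higher (5.31%, against 8.07% of all genes) and 39 lower (34.5%, against 7.76%). DESeq2 called 20 lower (17.7%, against 3.75%) and CABYR, PMAIP1 and RNF125 higher (2.65%, against 1.89%).

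CCBE1 changed by -6.03 ± 0.72 (adjusted p = 0.012), CD226 by -5.07 ± 0.83 (adjusted p = 0.031) and DSEL by -3.41 ± 0.60 (log2, adjusted p = 0.038, edgeR). CCBE1 had 15 counts in all in SW480-B and CD226 had 8. None of the role lists held a gene that passed. Their medians ran from -0.80 for cell division to 0.10 for signalling, cytoskeleton and cell death. CABLES1, an adaptor of cyclin-dependent kinase 5, was at 87.0, 39.9 and 14.7 CPM in SW480 and at 9.72, 5.70 and 5.32 CPM in SW480-B. Its log2 fold change of -2.78 ± 0.62 had an adjusted p of 0.083 (edgeR), and 0.028 in the fit with a replicate block. PMAIP1 (NOXA), a promoter of apoptosis, stood at 28.0, 24.1 and 30.8 CPM in SW480 and at 92.5, 51.9 and 52.7 CPM in SW480-B, which did not overlap, with an adjusted p of 0.092 (edgeR).

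The number of members that passed again followed single libraries. It was 19 without SW480 replicate 3 (16.8%, against 4.14% of all genes in that fit), 1 (CCBE1) without SW480 replicate 2 (against 0.331%) and 3 without SW480 replicate 1 (against 1.21%). It was 0 by edgeR without SW480-B replicate 1, 2 or 3, where 0, 0 and 14 of all genes were lower. The median log2 fold change lay between -0.75 and -0.39.

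The 2 BASP1-expressing lines were then compared with each other, a comparison that uses none of the SW480 libraries. The arm as a whole did not stand apart here. The median log2 fold change of the 111 members tested was -0.068, with 60 below 0 (54.1%), beside -0.0044 and 50.3% for all 15846 genes. In SW480-gRNA-B-all 11 members were lower (9.91%, against 5.73% of all genes) and 2 were higher (1.80%, against 3.03%) by edgeR. At an unadjusted p under 0.05 it was 23 lower (20.7%, against 13.8%) and 6 higher (5.41%, against 10.6%), and DESeq2 called 15 of 113 lower (13.3%, against 7.63%) and 3 higher (2.65%, against 4.67%). SETBP1 and CD226 did not pass the filter on low counts here. SETBP1 had 200 counts in SW480-B against 3 in SW480-gRNA-B-all, a ratio of 69.1 (95% exact counting interval 23.3 to 338), and in fits that kept it its adjusted p was 1.5e-06 by DESeq2, and by edgeR 0.011 with no filter and between 0.0042 and 0.058 in the others. SETBP1 met the CPM rule through 2 libraries each of SW480 and SW480-B, so its fall here was partly built into the choice. CD226 had an adjusted p of 0.79 with no filter (edgeR). The largest falls were those of ZBTB7C (-4.73 ± 0.49, adjusted p = 0.002), DSEL (-3.73 ± 0.71, adjusted p = 0.017), FHOD3 (-3.19 ± 0.38, adjusted p = 0.0031), ZNF521 (-2.35 ± 0.55, adjusted p = 0.034) and RNF125 (-2.01 ± 0.37, adjusted p = 0.015, edgeR, all log2 with SE).

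For ZNF521, a zinc finger transcription factor, SW480-B stood at 3.57, 5.91 and 1.55 CPM and SW480-gRNA-B-all at 0.507, 0.610 and 1.05 CPM, near the limit of the counts. RNF125 was at 5.88, 2.92 and 2.48 CPM in SW480-gRNA-B-all, below the 12.6 to 18.9 CPM of SW480-B. The other genes that fell were CABYR, PHLPP1, PSTPIP2, MEX3C, SLC39A6 and LMAN1, by between 0.75 and 1.15 on the log2 scale. LMAN1, a cargo receptor between endoplasmic reticulum and Golgi, was at 159, 189 and 132 CPM in SW480-B and at 83.2, 103 and 102 CPM in SW480-gRNA-B-all. SLC39A6 separated without overlap, at 66.7, 69.5 and 64.3 CPM and at 38.9, 38.4 and 38.9 CPM.

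Both genes that rose were lowest in SW480-B among the 3 lines. ATP8B1, a phospholipid flippase, was at 1.27, 1.22 and 1.08 CPM in SW480-B and at 2.64, 3.73 and 4.55 CPM in SW480-gRNA-B-all, a log2 change of 1.60 ± 0.33 (SE, adjusted p = 0.023, edgeR). In SW480 it was at 5.44, 5.42 and 1.70 CPM. ACAA2, the last enzyme of mitochondrial beta-oxidation, was at 11.3, 15.2 and 19.8 CPM in SW480-B and at 30.1, 29.2 and 30.8 CPM in SW480-gRNA-B-all, a log2 change of 0.96 ± 0.22 (SE, adjusted p = 0.033, edgeR). SW480 had 46.9, 33.1 and 39.0 CPM of ACAA2, above both.

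Replicates 2 and 3 of SW480-gRNA-B-all weighed on this comparison too. Without either of them, or with both summed, FHOD3 and ZBTB7C still passed, beside SETBP1 in the summed fit, and no gene was higher. Without SW480-B replicate 1 the counts were 5 lower and 1 higher (CTIF), without replicate 2 they were 4 and 0, without replicate 3 they were 16 and 4, and without SW480-gRNA-B-all replicate 1 they were 11 and 2 (ATP8B1 and PARD6G). Over all genes the share called lower in these 4 fits was 3.38%, 2.64%, 7.81% and 6.63%, and without SW480-gRNA-B-all replicate 2 or 3 it was 1.85% and 1.74%. In the same 4 fits 1.64%, 1.12%, 6.28% and 3.10% of all genes were called higher, against 0.901%, 0, 3.57% and 1.79% of the members.

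**Figure D5:**
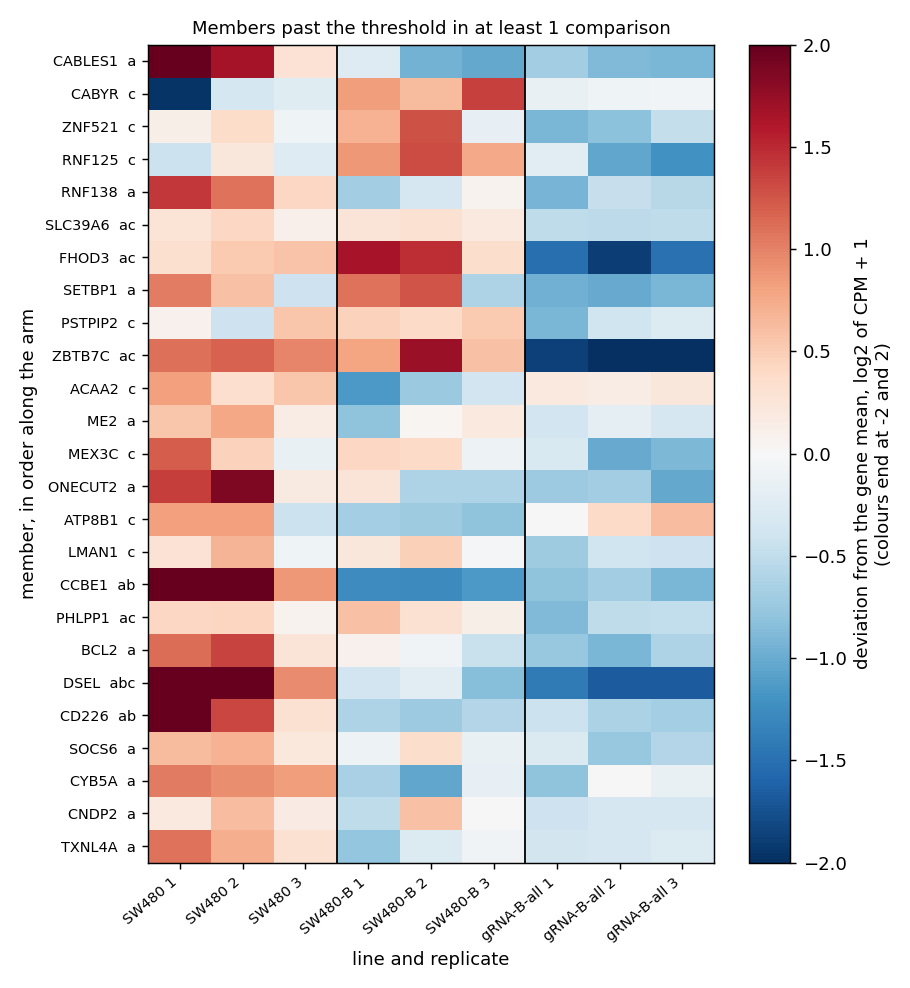
Deviation (log2 of CPM + 1, colour, ending at -2 and 2) of the 25 members that passed in at least 1 comparison (rows, in order along the arm) in each library (columns). Letters mark the comparison: a for SW480-gRNA-B-all against SW480, b for SW480-B against SW480 and c for SW480-gRNA-B-all against SW480-B. ZBTB7C and FHOD3 are low in all 3 SW480-gRNA-B-all libraries, while CCBE1, DSEL and CD226 are high in SW480, most in replicates 1 and 2.

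Each member was also tested against its own arm, by adding the arm level of each library to the offsets of the 113 genes. The arm level was computed from the same libraries, so this describes departures from the arm and is not a separate experiment. Between SW480-gRNA-B-all and SW480, 10 members were lower than the arm (8.85%, against 5.44% of all genes in this fit) and 2 higher (1.77%, against 2.29%). The 10 were all among the 17 of the plain test. Of the 108 genes that met the CPM rule without the SW480 libraries, 6 were lower than the arm (5.56%), close to the 5.44% of all genes. The 10 were led by DSEL (-6.52), SETBP1 (-5.03), ZBTB7C (-4.18), CD226 (-3.89) and CCBE1 (-3.75). The 2 higher genes were CTIF, a factor of cap-dependent translation (1.18, adjusted p = 0.023), and NEDD4L, an E3 ligase of membrane channels (0.76, adjusted p = 0.043, edgeR). CTIF was at 19.0, 13.6 and 14.3 CPM in SW480 and at 23.8, 26.3 and 25.0 CPM in SW480-gRNA-B-all, which did not overlap. NEDD4L was at 123, 93.9 and 66.6 CPM in SW480 and at 123, 105 and 102 CPM in SW480-gRNA-B-all, so that it did not follow the fall of its neighbours.

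Between SW480-B and SW480, CCBE1, CD226 and DSEL were lower than the arm (2.65%, against 1.20% of all genes), again those brought in by SW480. None was higher by edgeR (against 0.0931%). Between SW480-gRNA-B-all and SW480-B the offset left 10 lower (9.01%, against 5.72%) and the same 2 higher (1.80%, against 3.02%), and MEX3C was no longer called.

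Among well expressed genes of each role, many did not differ between lines beyond the spread of their libraries. The DNA end resection factor RBBP8 was at 138, 129 and 119 CPM in SW480 and at 143, 141 and 136 CPM in SW480-gRNA-B-all, a difference of 0.076 (95% interval -0.20 to 0.35, log2). SNRPD1, a core protein of spliceosomal snRNPs, spread more within SW480 (101, 132 and 174 CPM) than between lines. NPC1, which exports cholesterol from lysosomes, went against the arm, with 51.8, 96.1 and 91.9 CPM in SW480, 160.2, 187 and 109 CPM in SW480-B, and 125, 112 and 108 CPM in SW480-gRNA-B-all. Its lines SW480 and SW480-B did not overlap, but its adjusted p was 0.19 (edgeR). MALT1, a paracaspase of NF-kappaB signalling, stood at 161, 119 and 91.0 CPM in SW480, above the 49.6 to 82.7 CPM of the other 6 libraries, and its change of -0.86 in SW480-gRNA-B-all had an adjusted p of 0.11 by edgeR.

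TXNL1, a thioredoxin-like protein of the proteasome, was at 105, 60.8 and 74.6 CPM in SW480, and the change of -0.95 ± 0.24 seen for SW480-gRNA-B-all missed the threshold (adjusted p = 0.059, edgeR). The chromatin genes ZNF24, SS18 and MBD1 changed by -0.68, -0.50 and -0.55 (log2), with adjusted p-values of 0.095, 0.15 and 0.25 (edgeR). TPGS2, a subunit of the tubulin polyglutamylase, stood at 75.0, 85.1 and 62.0 CPM in SW480 and between 27.3 and 54.8 CPM in the derived lines, without overlap. Its adjusted p was 0.091 for the activated line and 0.13 for SW480-B (edgeR). Cohesin acetyltransferase ESCO1, at 89.1, 72.8 and 51.1 CPM in SW480, followed the order of the arm level within the parental line, and so did the kinase RIOK3 at 143, 124 and 82.6 CPM. MIB1, an E3 ligase of Notch ligands, had its highest SW480 value in replicate 2 (126, 161 and 109 CPM).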

How the data were processed

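Stranded libraries of poly(A) RNA, 3 from each of the 3 lines and grouped by sample titles, were sequenced. The authors aligned reads to GRCh37 and deposited whole-number counts per gene, not normalized. The counting program, its versions and its strand setting are not given in the sources used here. The 5 closing lines of each count file name no gene and stayed out; fragments on no gene were 5.22% to 9.93% and ambiguous ones 3.09% to 3.44%. The authors also deposited Picard output with normalized coverage along transcripts, per the file headers. The mean coverage of the first 20% of transcript length divided by that of the last 20% was between 0.845 and 0.899.

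Positions, gene types and symbols came from GENCODE v44 lifted to GRCh37, matched by Ensembl identifier. Each pair of lines was fitted on its own 6 libraries with edgeR 4.0.16 in R 4.3.3 (filterByExpr with least count 10 and least total 15, TMM, glmQLFit robust, glmQLFTest), with Benjamini-Hochberg adjustment over all genes tested and a threshold of 0.05. SE was derived from the log2 fold change and its F statistic (the fold change over the root of F), and 95% intervals are 1.96 SE. CPM use TMM factors over 9 libraries and log2 levels a pseudocount of 1 CPM. The scripts were tested on simulated data.

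The members and gene lists were chosen with earlier results of these data known. Named were, in each comparison, the 5 largest changes per direction in the plain test and against the arm, the 3 members with the highest mean CPM per role list, the highest and lowest per kb of exon, the first and last along the arm, and those at the edge of the rule. CABLES1, CABYR, PSTPIP2, ME2, MEX3C, ONECUT2, PHLPP1, BCL2, SOCS6, CYB5A, TXNL4A, GAREM1, DTNA, PIK3C3, ALPK2, ABHD3, HSBP1L1 and TTC39C are named after their values were seen. Same-numbered libraries of SW480-B and SW480 deviated together (correlations 0.31, 0.44 and 0.397, above the limit of 0.1). This was treated as possible pairing, which the labels do not state. Only the fit with a replicate block uses it, and the main fit does not. In the other pairs of lines, replicates 1 and 3 were above the limit (0.283 to 0.325) and replicate 2 was not (-0.00226 and -0.103).

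Alternatives were RLE factors, no filter, a filter of 1 CPM in 3 libraries, all 9 libraries in 1 fit, a replicate block, each library left out, DESeq2 1.42.0, a 2-fold minimum, the alike SW480-gRNA-B-all libraries summed, and an arm offset. Medians past 30 Mb and counts over members that met the CPM rule without the SW480 libraries were added after seeing the data. DNA was not analysed here.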

Additional observations from a re-analysis of the deposited data

Results flagged for a closer look

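The change of a member against SW480 can differ between the 2 BASP1-expressing lines. Since both changes are taken against the same SW480 libraries, the test of their difference is the direct comparison of SW480-gRNA-B-all with SW480-B (edgeR, adjusted p under 0.05, n = 3 per line), and 13 members passed it. The change was lower in SW480-gRNA-B-all for ZBTB7C (-4.73 on the log2 scale), DSEL (-3.73), FHOD3 (-3.19), ZNF521 (-2.35), RNF125 (-2.01), CABYR (-1.15), PHLPP1 (-1.07), PSTPIP2 (-1.03), MEX3C (-0.98), SLC39A6 (-0.80) and LMAN1 (-0.75). It was higher for ATP8B1 (1.60) and ACAA2 (0.96). Of the 111 members tested these are 11 lower (9.91%, against 5.73% of all genes) and 2 higher (1.80%, against 3.03%). FHOD3 and ZBTB7C passed whichever of the 6 libraries was left out, and the other 11 did not pass in every such fit. The cause of these differences was not tested. SW480-B stands for 1 clone, and SW480-gRNA-B-all came from cloned cells that then received pooled guides. Groups of 3 libraries are too small for a test of single outlying libraries, so SW480 replicate 3 is described in the text without one.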

How the results depend on the processing

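The direction of the arm was steadier than the number of genes called. In SW480-gRNA-B-all against SW480 (17 lower, 0 higher), DESeq2 gave 38 lower (33.6%, against 9.56% of all genes) and 2 higher (1.77%, against 6.08%). All 9 libraries in 1 fit gave 27 lower (23.9%, against 7.75%). The arm offset gave 10 lower (8.85%, against 5.44%) and 2 higher (1.77%, against 2.29%). Summing replicates 2 and 3 of the activated line gave 2 lower (1.77%, against 0.458%). In SW480-B against SW480 (3 lower, 0 higher), DESeq2 gave 20 lower (17.7%, against 3.75% of all genes) and 3 higher (2.65%, against 1.89%). No filter on low counts gave 10 lower (8.85%, against 1.80%) and 2 higher (1.77%, against 0.663%). All 9 libraries gave 9 lower (7.96%, against 2.31%). The members that met the CPM rule without the SW480 libraries gave 0 lower (against 1.25%). Between the 2 derived lines (11 lower, 2 higher), all 9 libraries gave 1 higher (0.885%, against 1.28% of all genes). The sum of replicates 2 and 3 gave 3 lower (2.68%, against 1.87%) and 0 higher (against 0.869%). A 2-fold minimum gave 8 lower and 1 higher, for which no share over all genes is given here, so nothing is read from them. Leaving out 1 library moved these counts from 0 to 56 lower and from 0 to 3 higher in the first comparison, from 0 to 19 lower with 0 higher throughout in the second, and from 2 to 16 lower and 0 to 4 higher in the third. The medians moved from -0.75 to -0.39 in the second comparison and from -0.086 to 0.00024 in the third, and members past 30 Mb alone gave 0.028 in the third. The arm level of SW480-B replicate 2 was 0.0072 over members with a mean of at least 10 CPM. The arm levels of the other 8 libraries kept their sign under each alternative. The cause of these shifts was not tested.

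In SW480-B against SW480, treated as possibly paired, the replicate block gave 4 lower (3.54%, against 1.63% of all genes). CABLES1 was added, and no other call of a member changed there. The block was also fitted for the 2 comparisons whose replicate numbers are not taken as pairing. SW480-gRNA-B-all against SW480 gave 17 lower (15.0%, against 6.01% of all genes) and 0 higher (against 2.35%). SW480-gRNA-B-all against SW480-B gave 14 lower (12.6%, against 7.71%) and 2 higher (1.80%, against 4.78%). Over the genes named by rule, no value past the threshold changed sign. Libraries with 25238831 counts or more leave members under about 1 CPM, such as SETBP1 and CD226 in SW480-gRNA-B-all, resting on few counts.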
